A study of Homo sapiens with 8 samples.

Results

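The human mitochondrial genome is a small circular DNA that gives rise to messenger RNAs, ribosomal RNAs and transfer RNAs of its own. The genes described here were all rows of the count table whose symbol starts with MT-. They were 37 of 59385 gene symbols and held 13 mRNAs, 2 rRNAs and 22 tRNAs. The filter on low counts left 32 of them for testing, and these were the 13 mRNAs, both rRNAs and 17 tRNAs. The 5 tRNAs that were not tested were MT-TA, MT-TF, MT-TK, MT-TV and MT-TW, with 0 to 12 counts per library.

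The cells were IHCF, a line of immortalized human cardiac fibroblasts. Lentivirus delivered either a short hairpin RNA against EIF4G2 (knockdown) or a scrambled hairpin (scramble), and both kinds of cell went through at least 6 h of serum starvation before 24 h of TGF-beta, a cytokine that activates fibroblasts. The groups were knockdown polysome, scramble polysome, knockdown total and scramble total, with 2 libraries each and 8 in all, so TGF-beta treated cells with the scrambled hairpin were the controls and no group went without TGF-beta. EIF4G2 is a translation initiation scaffold related to EIF4G1. The labels name 1 hairpin against it, so an effect of the hairpin on other RNAs and an effect of lost EIF4G2 cannot be told apart. The titles call the 2 libraries of a group biological replicates and do not name their cultures, so p-values cover the spread between libraries, part of which may be technical.

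Mitochondrial RNA polymerase copies each strand of the circle into long transcripts that cover most of its genes. In many places a tRNA lies between neighbouring genes, and its excision by RNase P at one end and by the nuclease ELAC2 at the other frees the mRNAs and rRNAs on either side. The mRNAs encode subunits of complexes I, III and IV and of ATP synthase, and they are translated inside the organelle by mitochondrial ribosomes, which contain both mitochondrial rRNAs and proteins imported from the cytosol. Most of the mRNAs receive a short poly(A) tail from the polymerase MTPAP, whereas MT-ND6 is known to lack a long tail and mature tRNAs end in CCA.

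The results below turn on pairs of overlapping reading frames and on the tRNAs. MT-ND4L ends inside MT-ND4, and MT-ATP8 ends inside MT-ATP6, so each pair shares 1 transcript and part of its sequence. The sequences come from the GENCODE release 29 transcripts of GRCh38, the build that the submitters' processing notes name. In the 2 reading frames printed here, from chrM:10470-10766 and chrM:8366-8572 on the plus strand, capitals mark the bases shared with the next frame, 7 bases for MT-ND4L and 46 bases for MT-ATP8.
MT-ND4L: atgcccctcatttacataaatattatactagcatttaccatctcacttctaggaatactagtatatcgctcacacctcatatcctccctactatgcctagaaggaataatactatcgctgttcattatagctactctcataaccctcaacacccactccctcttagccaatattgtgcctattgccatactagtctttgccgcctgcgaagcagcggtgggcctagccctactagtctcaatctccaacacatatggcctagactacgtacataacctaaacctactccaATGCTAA
MT-ATP8: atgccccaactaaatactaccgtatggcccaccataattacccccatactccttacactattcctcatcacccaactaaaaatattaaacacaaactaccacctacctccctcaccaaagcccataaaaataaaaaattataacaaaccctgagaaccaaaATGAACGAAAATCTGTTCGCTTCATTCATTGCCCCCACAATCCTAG
In the tRNAs capitals mark the anticodon. The first 5 lie between mRNAs on the plus strand: MT-TG between MT-CO3 and MT-ND3 (chrM:9991-10058), MT-TR between MT-ND3 and MT-ND4L (chrM:10405-10469), and MT-TH, MT-TS2 and MT-TL2 one after the other between MT-ND4 and MT-ND5 (chrM:12138-12206, chrM:12207-12265 and chrM:12266-12336).
MT-TG: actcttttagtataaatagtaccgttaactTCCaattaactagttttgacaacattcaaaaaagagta
MT-TR: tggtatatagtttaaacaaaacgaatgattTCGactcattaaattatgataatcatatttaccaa
MT-TH: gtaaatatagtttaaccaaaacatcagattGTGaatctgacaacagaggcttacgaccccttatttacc
MT-TS2: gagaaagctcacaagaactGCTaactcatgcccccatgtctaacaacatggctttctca
MT-TL2: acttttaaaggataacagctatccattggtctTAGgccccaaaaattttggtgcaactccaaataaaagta
The next 3 had the highest mean counts of the tRNAs, and all of them lie on the minus strand. They are MT-TC (chrM:5761-5826), MT-TN (chrM:5657-5729) and MT-TP (chrM:15956-16023).
MT-TC: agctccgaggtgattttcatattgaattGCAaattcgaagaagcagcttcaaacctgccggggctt
MT-TN: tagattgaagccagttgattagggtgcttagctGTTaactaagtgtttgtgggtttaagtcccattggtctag
MT-TP: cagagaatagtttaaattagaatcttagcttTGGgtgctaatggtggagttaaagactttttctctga
The last pair follows directly on MT-RNR2 and on MT-CYB on the plus strand. It consists of MT-TL1 (chrM:3230-3304) and MT-TT (chrM:15888-15953).
MT-TL1: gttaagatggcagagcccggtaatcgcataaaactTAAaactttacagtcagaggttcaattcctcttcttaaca
MT-TT: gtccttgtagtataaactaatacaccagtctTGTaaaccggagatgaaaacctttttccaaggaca

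EIF4G2 stood at 244 and 334 CPM in knockdown polysome libraries, against 875 and 876 CPM in scramble polysome libraries. In total RNA it stood at 293 and 327 CPM in knockdown libraries, against 793 and 785 CPM in scramble libraries. CPM here is a count divided by the library total times a TMM factor, a scaling that centres most genes between libraries. Libraries held 18043714 to 24590030 counts, and TMM factors were 0.653 to 0.751 in polysomal and 1.37 to 1.45 in total RNA. A level in polysomal RNA is relative to the other genes of the library and is no amount per cell. Of 12 fibroblast markers 11 passed the filter, with a summed level of 6602 to 7432 CPM over all libraries. COL1A1 (884 to 4168 CPM), VIM (1092 to 5747 CPM) and FN1 (364 to 1231 CPM) were the highest. Other members were low, with PDGFRA at 0.271 to 2.16 CPM, TCF21 at 0.255 to 3.25 CPM and POSTN at 0.337 to 5.18 CPM. LUM stood at 1.87 to 9.51 CPM and COL3A1 at 0.810 to 51.5 CPM, and DCN had 0 to 8 counts. Of 8 cardiomyocyte markers 3 passed the filter, and their summed level was 0.810 and 1.87 CPM in knockdown polysome, 6.71 and 4.04 CPM in scramble polysome and 0.816 to 1.22 CPM in total libraries, with MYL7 highest at 0 to 114 counts and MYH6 and MYH7 at 0 in every library, which allows up to 3 counts in each. Of 6 endothelial markers 4 passed, with TEK at 38 to 251 and PECAM1 at 33 to 85 counts and a sum of 7.55 to 15.1 CPM. Of 6 leukocyte markers CD14 passed, at 5 to 34 counts, with a sum of 0.849 to 1.62 CPM and CD3E at 0 in every library. Of 5 epithelial markers 4 passed. The keratins KRT8 (819 to 1641 CPM) and KRT18 (342 to 1550 CPM) were high in every library. KRT19 had 32 to 165 counts, EPCAM 6 to 40 and CDH1 0 to 5. The summed epithelial marker level was 2236 and 2267 CPM in knockdown polysome and 3125 and 3197 CPM in scramble polysome libraries. In total RNA it was 1422 and 1164 CPM in knockdown and 1363 and 1391 CPM in scramble libraries. The part of these markers in the results was not tested, and in these bulk samples fewer cells of a type and less RNA per cell cannot be told apart.

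Mitochondrially encoded RNA took a larger share of polysomal than of total RNA. Its share of all counts was 14.5 and 16.3% in knockdown polysome libraries, against 3.93 and 3.88% in knockdown total libraries. In scramble cells it was 7.12 and 17.5% in polysome libraries, against 4.06 and 4.21% in total libraries. Every polysome library was above every total library, and scramble polysome replicate 1 stood well below the other polysome libraries. Counting error was small beside these differences, since the 95% Wilson intervals reached at most 0.0170 percentage points to either side, and such intervals cover counting error only. Over both hairpins the share averaged 13.9 ± 4.67% in polysomal RNA and 4.02 ± 0.148% in total RNA (SD, n = 4 each). Here and for the shares below, n = 4 pools 2 libraries of each hairpin. The SD and the permutation test therefore also take in any difference between the hairpins. The difference of 9.83 points had p = 0.0286 in a two-sided exact permutation test, which is the smallest p that 4 libraries against 4 allow. The Benjamini-Hochberg value over the 4 such shares tested was 0.0286 for each of them.

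**Figure D1:**
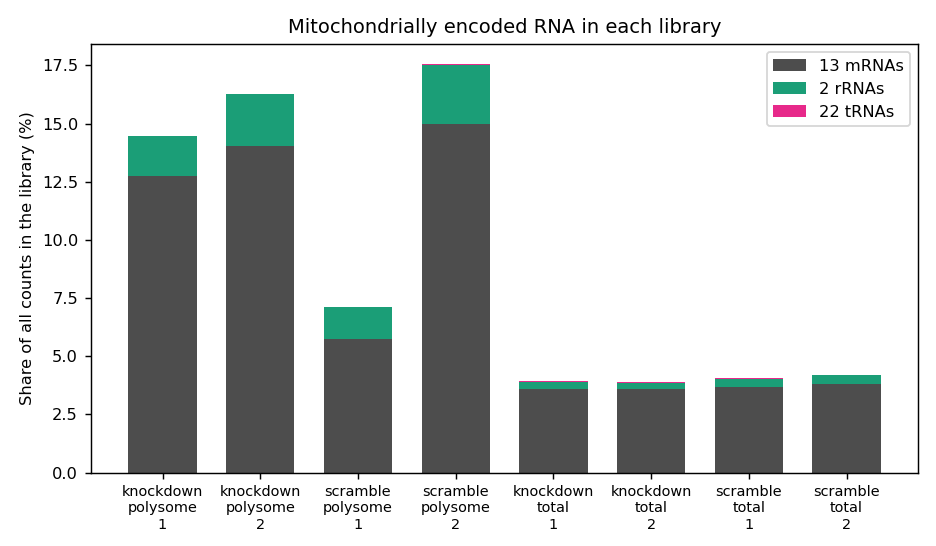
Share of all counts in a library (%, y axis) that fell on the 13 mRNAs, 2 rRNAs and 22 tRNAs of the mitochondrial genome, for each of the 8 libraries. Polysome libraries lie at 7.12 to 17.5% and total libraries at 3.88 to 4.21%, and scramble polysome replicate 1 has the lowest polysomal share.

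The make-up of the mitochondrial RNA also differed between the fractions, and these shares do not depend on how libraries were scaled. The rRNAs MT-RNR1 and MT-RNR2, the RNAs of the small and the large mitochondrial ribosomal subunit, took 11.98 and 13.56% of mitochondrial counts in knockdown polysome libraries, against 7.89 and 7.43% in knockdown total libraries. In scramble cells they took 19.1 and 14.6% in polysome libraries, against 9.22 and 9.43% in total libraries. The groups did not overlap, and the means of 14.8 ± 3.08% in polysomal RNA and 8.49 ± 0.986% in total RNA (SD, n = 4 each) differed with p = 0.0286 in the two-sided exact permutation test, again the smallest possible. The share of the tRNAs went the other way. Together they held 0.162 ± 0.0488% of mitochondrial counts in polysomal RNA and 0.420 ± 0.0478% in total RNA (SD, n = 4 each, p = 0.0286, two-sided exact permutation test). This is a share of mitochondrial counts and not a level beside all genes. The tRNA counts themselves overlapped between the fractions, at 3365 to 6909 per polysome library, against 2845 to 4073 per total library.

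The most abundant mRNA per length belonged to complex IV, cytochrome c oxidase. In CPM per kb of annotated gene, MT-CO2 led in every group, with means of 74142 in knockdown polysome, 48603 in scramble polysome, 5623 in knockdown total and 5194 in scramble total libraries. In polysomal RNA the next levels were those of MT-CO3, MT-ATP6 and MT-CO1 in this order for both hairpins, whereas in total RNA MT-CO1 and MT-CO3 followed MT-CO2 for both hairpins. MT-ND4, of complex I, and MT-ATP6 came next in total RNA, at 2851 and 2885 CPM per kb in knockdown and 3065 and 2857 CPM per kb in scramble libraries, so their order differed between the hairpins. Neighbours in these orders were not always apart by more than their spread, and the libraries of MT-CO3 and MT-ATP6 overlapped in knockdown polysome. At the lower end of polysomal RNA stood MT-ATP8, MT-ND4L and MT-ND5, and MT-ND5 was lowest at 1286 CPM per kb in knockdown and 988 CPM per kb in scramble polysome libraries. MT-ATP8 and MT-ND4L each share a transcript with MT-ATP6 and MT-ND4, so their levels per kb are not those of separate mRNAs. At the lower end of total RNA stood MT-RNR1, the rRNA of the small subunit, at 228 CPM per kb in knockdown and 226 CPM per kb in scramble libraries. Since its partner MT-RNR2 stood at 1224 and 1571 CPM per kb in the same libraries, the rRNAs were far from equal in number of counts per length. How far the poly(A) selection shaped these levels was not tested.

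**Figure D2:**
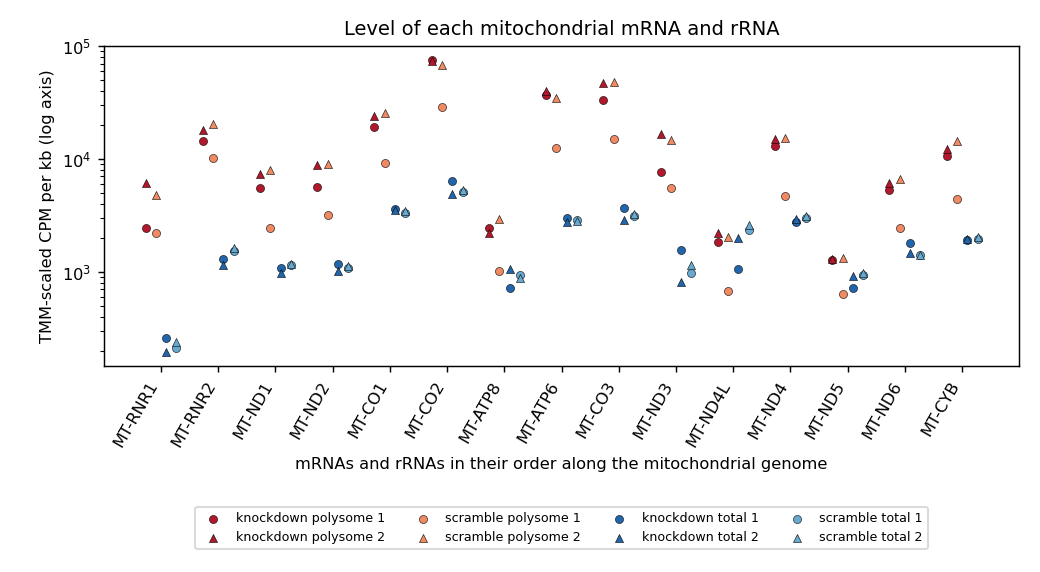
TMM-scaled CPM per kb of annotated gene (log axis, y) of the 13 mRNAs and 2 rRNAs in their order along the mitochondrial genome (x), with a point per library (circle replicate 1, triangle replicate 2). Polysomal points lie above the total points for most genes and meet them at MT-ND4L and MT-ND5, and scramble polysome replicate 1 is the lowest polysomal point for every gene.

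Polysomal and total RNA were compared within each hairpin to ask how each RNA was spread between the fractions. Of the 32 tested members, 18 were higher and 6 lower in polysomal than in total RNA of knockdown cells at an edgeR quasi-likelihood adjusted p below 0.05, and 17 were higher and 5 lower in scramble cells. Over all 16228 tested genes 28.9% were called higher and 34.1% lower in knockdown cells, and 29.7% higher and 33.7% lower in scramble cells. DESeq2 called 26 of the 32 in knockdown and 21 in scramble cells, beside 62.4% and 62.8% of all tested genes. Of the 13 mRNAs 11 were higher with each hairpin, as were both rRNAs, and of the 17 tRNAs 5 were higher and 6 lower in knockdown and 4 higher and 5 lower in scramble cells. The 15 mRNAs and rRNAs had a median log2 fold change of 2.66 in knockdown and 2.37 in scramble cells, beside medians of −0.16 and −0.17 over all tested genes. Every polysome library was above every total library of the same hairpin for 14 of the 15 in knockdown cells, beside 36.6% of all tested genes, and for 13 of the 15 in scramble cells, beside 38.8%, where MT-ND4L was the 1 with the reverse order, beside 46.1%. The baseline rests on the scaling: with library totals in place of TMM the median of all genes moved to −1.22 in knockdown and −1.16 in scramble cells, and that of the 15 to 1.59 and 1.34. With library totals 16.2% of the calls over all genes in knockdown cells were higher in polysomal RNA, instead of 45.9%, and 19.4% in scramble cells, instead of 46.9%. Without scramble polysome replicate 2 the median of the 15 in scramble cells was 1.39, and without scramble polysome replicate 1 it was 2.82.

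Subunits of ATP synthase and complex IV showed large differences. MT-ATP6, which encodes the proton channel subunit of ATP synthase, stood at 25323 and 27225 CPM in knockdown polysome libraries, against 2062 and 1867 CPM in knockdown total libraries. In scramble cells it stood at 8590 and 23635 CPM in polysome libraries, against 1957 and 1934 CPM in total libraries. All polysome libraries were above all total libraries, and the log2 fold changes were 3.74 ± 0.42 (SE, edgeR adjusted p = 2.05e-05) in knockdown and 3.05 ± 0.41 (adjusted p = 6.6e-05) in scramble cells. MT-CO2, the subunit of complex IV that takes electrons from cytochrome c, stood at 51102 and 50324 CPM in knockdown polysome libraries, against 4329 and 3363 CPM in knockdown total libraries. In scramble cells it stood at 19814 and 46675 CPM in polysome libraries, against 3475 and 3630 CPM in total libraries. Its log2 fold changes were 3.72 in knockdown and 3.23 in scramble cells, and those of MT-CO3, another core subunit, were 3.61 and 3.30. MT-CO1, the catalytic subunit, had 2.60 and 2.37, with edgeR adjusted p of 0.000258 and 0.000457. The counts of MT-CO2 were accordingly 174 and 135% of those of MT-CO1 in knockdown polysome libraries, against 78.2 and 61.9% in knockdown total libraries, and 139 and 118% in scramble polysome libraries, against 68.4 and 68.0% in scramble total libraries.

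The mRNAs of complex I, the NADH dehydrogenase, spread widely. MT-ND3 had log2 fold changes of 3.36 in knockdown and 3.24 in scramble cells, MT-ND2 of 2.73 and 2.46, MT-ND1 of 2.66 and 2.16, and MT-ND4 of 2.30 and 1.71, and each was higher in polysomal RNA with an edgeR adjusted p between 0.000195 and 0.00497. In scramble cells the value of MT-ND4 was 0.57 without scramble polysome replicate 2 (edgeR adjusted p = 0.0567) and 0.68 with library totals (0.151). MT-CYB, the cytochrome b of complex III, was higher by 2.57 and 2.23 in the same way. MT-ND5, a large proton-pumping subunit, was not called by edgeR for either hairpin. It stood at 2303 and 2358 CPM in knockdown polysome libraries, against 1295 and 1666 CPM in knockdown total libraries, and at 1156 and 2424 CPM in scramble polysome libraries, against 1711 and 1773 CPM in scramble total libraries. The fractions did not overlap in knockdown cells and did in scramble cells, and the log2 fold changes were 0.65 ± 0.30 (SE, edgeR adjusted p = 0.0746) and 0.04 ± 0.29 (adjusted p = 0.915). The sign for MT-ND5 in scramble cells was negative with RLE size factors, library totals, no filter, the replicate block or scaling without the MT- rows, and in knockdown cells with library totals. MT-ND5 was called higher in knockdown cells by DESeq2 (adjusted p = 0.0373), with the replicate block (edgeR adjusted p = 0.0396), with no filter (0.0207) and without either scramble polysome replicate (0.0241 and 0.0246). In scramble cells it was called lower with library totals (edgeR adjusted p = 0.011) and without scramble polysome replicate 2 (0.0338).

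MT-ND4L, the small subunit whose frame runs into MT-ND4, stood at 550 and 661 CPM in knockdown polysome libraries, against 312 and 594 CPM in knockdown total libraries. In scramble cells it stood at 200 and 607 CPM in polysome libraries, against 699 and 780 CPM in total libraries. The fractions overlapped in knockdown cells, whereas both polysome libraries were below both total libraries in scramble cells. The log2 fold changes were 0.42 ± 0.42 (SE, edgeR adjusted p = 0.41) in knockdown and −0.87 ± 0.43 (adjusted p = 0.0948) in scramble cells. With library totals the value was −0.66 in knockdown cells, and with no filter on low counts it was −1.05 in scramble cells (edgeR adjusted p = 2.77e-08). MT-ND4L was also called lower in scramble cells with the replicate block (−1.05, edgeR adjusted p = 0.0088) and with library totals (−1.90, adjusted p = 0.00315). Without scramble polysome replicate 2 the value in scramble cells was −1.95 (edgeR adjusted p = 0.00193).

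**Figure D3:**
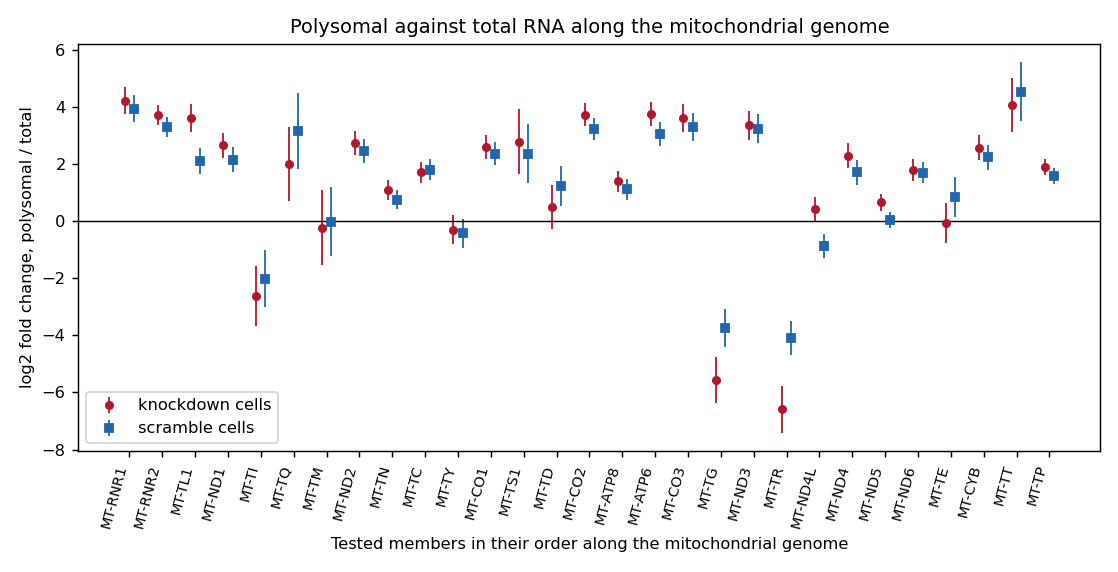
Log2 fold change of polysomal over total RNA (y axis, bars are SE) in knockdown and scramble cells for the tested members along the mitochondrial genome, without MT-TH, MT-TS2 and MT-TL2, which had a group with no counts. Most mRNAs and both rRNAs lie between 1.12 and 4.23, and the tRNAs MT-TG and MT-TR lie at −3.75 to −6.59. MT-ND4L lies at 0.42 in knockdown and −0.87 in scramble cells, and MT-ND5 at 0.65 and 0.04.

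Within a pair of frames on 1 transcript the ratio of counts needs no scaling between libraries. MT-ND4L counts were 3.09 and 3.16% of MT-ND4 counts in knockdown polysome libraries, against 8.13 and 14.8% in knockdown total libraries. In scramble cells the ratio was 3.06 and 2.88% in polysome libraries, against 16.8 and 18.2% in total libraries. The ratio was close in all 4 polysome libraries and higher in every total library, of which knockdown total replicate 1 was lowest. For the other overlapping pair, MT-ATP8 counts were 2.02 and 1.67% of MT-ATP6 counts in knockdown polysome libraries, against 7.19 and 11.7% in knockdown total libraries, and 2.47 and 2.58% in scramble polysome libraries, against 9.95 and 9.52% in scramble total libraries. MT-ATP8, a small ATP synthase subunit, was nevertheless itself higher in polysomal RNA, by 1.39 (edgeR adjusted p = 0.00801) in knockdown and 1.12 (adjusted p = 0.0231) in scramble cells on the log2 scale. That call was lost with library totals, where the values were 0.33 and 0.09, and also without knockdown total replicate 1 in knockdown cells and without scramble polysome replicate 2 or either scramble total replicate in scramble cells. The call was also lost in scramble cells when the 4 scramble libraries were fitted alone (1.13, edgeR adjusted p = 0.0791). For reads in the bases that 2 frames share the counting rule was not given in the sources used here, so the split of counts within both pairs is uncertain.

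MT-ND5 and MT-ND4 do not overlap and are separated by MT-TH, MT-TS2 and MT-TL2. MT-ND5 counts were 12.95 and 11.28% of MT-ND4 counts in knockdown polysome libraries, against 33.7 and 41.5% in knockdown total libraries. In scramble cells they were 17.7 and 11.5% in polysome libraries, against 41.2 and 41.3% in total libraries. As for the overlapping pairs, every polysome library was below every total library.

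**Figure D4:**
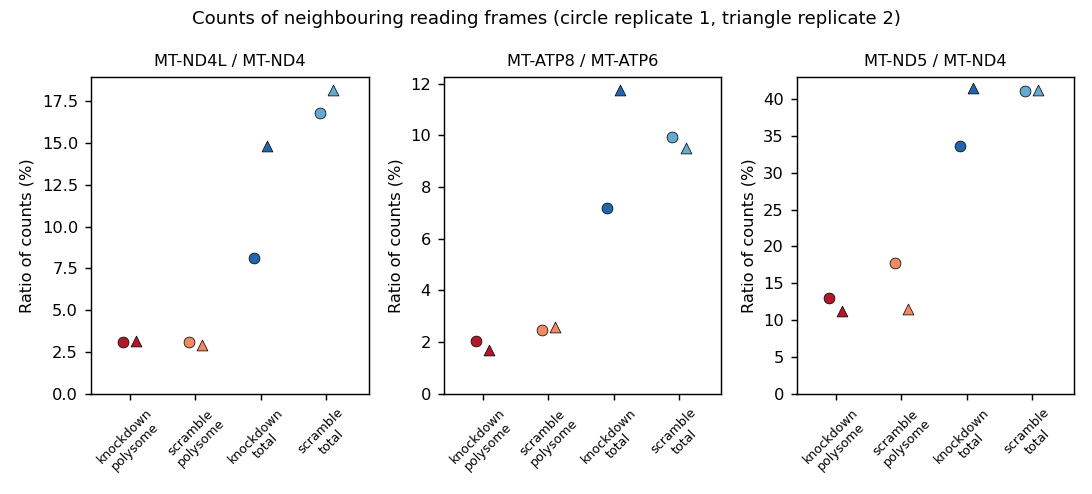
Ratio of counts (%, y axis from 0) of MT-ND4L to MT-ND4, MT-ATP8 to MT-ATP6 and MT-ND5 to MT-ND4 in each library of the 4 groups. Each ratio is lower in every polysome library than in any total library, and the 4 polysome libraries lie within 2.88 to 3.16% for MT-ND4L to MT-ND4.

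MT-ND6, a membrane subunit of complex I, is the only mRNA read on the minus strand. It stood at 2806 and 3193 CPM in knockdown polysome libraries, against 952 and 779 CPM in knockdown total libraries, and at 1279 and 3510 CPM in scramble polysome libraries, against 738 and 740 CPM in scramble total libraries. The fractions did not overlap, and its log2 fold changes were 1.79 (edgeR adjusted p = 0.00151) in knockdown and 1.70 (adjusted p = 0.00207) in scramble cells. With library totals they were 0.74 (edgeR adjusted p = 0.076) and 0.67 (0.101), and without scramble polysome replicate 2 the value in scramble cells was 0.73. Its share of the counts on mitochondrial mRNAs was 1.59 ± 0.0864% in polysomal RNA and 3.13 ± 0.352% in total RNA (SD, n = 4 each, p = 0.0286, two-sided exact permutation test). The strand setting of the counting was not given in the sources used here, so reads from the plus strand transcript across MT-ND6, or across a tRNA of the minus strand, cannot be told apart from reads of the gene itself.

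Both rRNAs were higher in polysomal RNA. MT-RNR2 stood at 22417 and 27984 CPM in knockdown polysome libraries, against 2020 and 1798 CPM in knockdown total libraries, and at 16044 and 32050 CPM in scramble polysome libraries, against 2379 and 2518 CPM in scramble total libraries. MT-RNR1 stood at 2318 and 5834 CPM in knockdown polysome libraries, against 247 and 188 CPM in knockdown total libraries, and at 2095 and 4531 CPM in scramble polysome libraries, against 203 and 229 CPM in scramble total libraries. No polysome library overlapped with a total library for either rRNA. The log2 fold changes were 3.72 ± 0.35 (SE, edgeR adjusted p = 6.34e-06) and 3.30 ± 0.34 (adjusted p = 1.14e-05) for MT-RNR2, and 4.23 ± 0.48 (adjusted p = 2.05e-05) and 3.94 ± 0.47 (adjusted p = 2.83e-05) for MT-RNR1, in knockdown and in scramble cells. The counts of MT-RNR2 as a ratio to those of its downstream mRNA MT-ND1 were 426 and 395% in knockdown polysome libraries, against 196 and 194% in knockdown total libraries, and 687 and 424% in scramble polysome libraries, against 217 and 225% in scramble total libraries.

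The tRNAs divided into those with more and those with fewer counts in polysomal RNA. The 3 with the highest mean counts, MT-TC, MT-TN and MT-TP, carry cysteine, asparagine and proline. MT-TC was higher in polysomal RNA by 1.71 in knockdown (edgeR adjusted p = 0.00201) and 1.80 in scramble cells (adjusted p = 0.00137) on the log2 scale, and MT-TP by 1.90 (adjusted p = 0.000147) and 1.58 (adjusted p = 0.000485). With library totals MT-TC had 0.64 (edgeR adjusted p = 0.12) in knockdown and 0.78 (0.0616) in scramble cells, and MT-TP had 0.57 (0.0735) in scramble cells. MT-TN passed in knockdown cells, at 1.10 (edgeR adjusted p = 0.0167), and not in scramble cells, at 0.75 (adjusted p = 0.0752). With no filter MT-TN was called higher in scramble cells too, at 0.59 (edgeR adjusted p = 0.00734). In knockdown cells its value was 0.046 with library totals (edgeR adjusted p = 0.908). It was 0.56 there without knockdown polysome replicate 2 and 0.68 without knockdown total replicate 2. MT-TL1 and MT-TT, named after their values were seen, follow MT-RNR2 and MT-CYB. MT-TL1 had 573 and 306 counts in knockdown polysome libraries, against 62 and 103 counts in knockdown total libraries, and 205 and 571 counts in scramble polysome libraries, against 140 and 151 counts in scramble total libraries. MT-TT had 145 and 51 counts in knockdown polysome libraries, against 13 in each knockdown total library, and 15 and 171 counts in scramble polysome libraries, against 5 and 8 counts in scramble total libraries. For both of them every polysome library was above the total libraries of the same hairpin, with log2 fold changes of 3.60 and 2.12 for MT-TL1 and 4.07 and 4.53 for MT-TT in knockdown and scramble cells and edgeR adjusted p of at most 0.00334. With library totals MT-TL1 had 1.10 in scramble cells (edgeR adjusted p = 0.0576). Without scramble polysome replicate 2 the value of MT-TT in scramble cells was 1.74 (edgeR adjusted p = 0.0756).

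The 5 tRNAs between MT-CO3 and MT-ND5 on the plus strand, also named after their values were seen, were nearly or wholly missing from polysomal RNA. MT-TH, which carries histidine, had 0 counts in all 4 polysome libraries, against 157 and 134 counts in knockdown total and 116 and 118 counts in scramble total libraries. Set against 3 counts per library, it was at least 20.4-fold lower in polysomal RNA of knockdown cells and at least 24.3-fold lower in that of scramble cells. MT-TS2 had 0 counts in all 4 polysome libraries too, against 29 and 25 counts in knockdown total and 23 and 28 counts in scramble total libraries, which made it at least 3.79-fold and 5.32-fold lower. MT-TL2 had no polysomal count in knockdown cells and 0 and 1 in scramble cells, against 24 and 11 counts in knockdown total and 14 counts in each scramble total library. It was at least 2.44-fold lower in polysomal RNA of knockdown cells, and in scramble cells its level in total RNA was 17.4 times that in polysomal RNA, with a 95% counting interval of 2.88 to 712. The edgeR call of MT-TL2 as lower in scramble cells (adjusted p = 0.0277) was lost in DESeq2 (0.0553), with the replicate block (0.0508) and without any 1 of the total libraries or scramble polysome replicate 1, and that in knockdown cells without knockdown total replicate 1 (0.0736).

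MT-TG, which carries glycine, had 0 and 2 counts in knockdown polysome libraries, against 135 and 105 counts in knockdown total libraries, and 5 and 2 counts in scramble polysome libraries, against 89 and 66 counts in scramble total libraries. MT-TR, which carries arginine, had 0 and 1 counts in knockdown polysome libraries, against 148 and 112 counts in knockdown total libraries, and 5 and 2 counts in scramble polysome libraries, against 118 and 79 counts in scramble total libraries. Both were called lower in polysomal RNA, with log2 fold changes of −5.56 (edgeR adjusted p = 0.00013) and −3.75 (adjusted p = 0.00054) for MT-TG and −6.59 (adjusted p = 3.94e-05) and −4.09 (adjusted p = 0.000138) for MT-TR in knockdown and scramble cells. Counts this low give wide intervals. In knockdown cells the level of MT-TG in total RNA was 51.3 times that in polysomal RNA, with a counting interval of 14.05 to 426, and that of MT-TR 111 times, with an interval of 19.8 to 4407. Of the mRNAs next to these 5 tRNAs, MT-CO3, MT-ND3 and MT-ND4 were called higher in polysomal RNA with both hairpins in edgeR, and MT-ND4L and MT-ND5 were not. The length of the RNA that each tRNA read came from was not measured. Of the other tested tRNAs, MT-TI, which carries isoleucine, was called lower in knockdown cells, where it had 2 and 7 counts in polysome libraries, against 72 and 62 counts in total libraries, and not in scramble cells, with 0 and 14 counts in polysome libraries, against 37 and 56 counts in total libraries. For MT-TI the edgeR adjusted p in knockdown cells was 0.0494, and it was 0.0599 to 0.167 without knockdown polysome replicate 1 or any 1 of the 4 total libraries. In scramble cells MT-TI was called lower with library totals, with no filter and without scramble polysome replicate 2. MT-TD, MT-TE, MT-TM, MT-TQ, MT-TS1 and MT-TY had 0 to 120 counts per library and were not called by edgeR with either hairpin. Of these, MT-TS1 was called higher in knockdown cells by DESeq2 (adjusted p = 0.0277), with the replicate block (edgeR adjusted p = 0.0486) and with no filter (0.00936). In scramble cells MT-TS1 was called higher with no filter (edgeR adjusted p = 0.0168). MT-TY was called lower with both hairpins with library totals.

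The knockdown was set against scramble to ask which of these RNAs depend on EIF4G2. In total RNA none of the 32 tested members was called by edgeR or DESeq2, and none had an unadjusted p below 0.05 in edgeR. DESeq2 could not call some tRNAs, since it gave them no adjusted p in this comparison. These were MT-TD, MT-TE, MT-TG, MT-TH, MT-TI, MT-TL2, MT-TM, MT-TQ, MT-TR, MT-TS1, MT-TS2, MT-TT and MT-TY. Over all tested genes edgeR called 0% in this comparison and DESeq2 0.16%. MT-ND4L had the largest difference of the mRNAs and rRNAs, with a log2 fold change of −0.71 ± 0.42 (SE, edgeR adjusted p = 1.00) from the values given above, where the knockdown libraries lie below both scramble libraries. Its value was −0.32 without knockdown total replicate 1 and −1.24 without knockdown total replicate 2, and MT-ND4L was called lower when genes were not filtered (−0.72, edgeR adjusted p = 0.0375). MT-RNR2 followed at −0.36 ± 0.32 and MT-ND5 at −0.23 ± 0.29, and MT-ND6 was the highest at 0.23 ± 0.36. The other mRNAs and MT-RNR1 lay within −0.18 (MT-ND1) and 0.15 (MT-ND3), with MT-CO2 at 0.11, MT-CO1 at 0.07, MT-ATP8 at −0.04, MT-CYB at −0.05 and MT-ND4 at −0.10, and the signs of MT-CO3, MT-ATP6, MT-ND2 and MT-RNR1 changed between settings. MT-CO1 and MT-ND6 had both knockdown libraries above both scramble libraries, and MT-CYB, MT-ND1, MT-ND4, MT-ND4L, MT-ND5 and MT-RNR2 had both below. This makes 8 of 15 without overlap, beside 47.9% of all tested genes (24.8% above and 23.1% below). The rRNA share of mitochondrial counts was likewise 7.66 ± 0.325% in knockdown total and 9.33 ± 0.145% in scramble total libraries (SD, n = 2 each), without overlap, and with 2 libraries against 2 an exact permutation test cannot go below p = 0.333.

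In polysomal RNA the 15 mRNAs and rRNAs all had a positive log2 fold change of knockdown over scramble, from 0.07 for MT-RNR2 to 0.71 for MT-ATP6 with a median of 0.32, and none was called. EdgeR called 0.0123% of all tested genes in this comparison and DESeq2 1.4%, and no tested member had an unadjusted p below 0.05 in edgeR. MT-ATP6 (0.71 ± 0.38, SE, edgeR adjusted p = 0.454) and MT-CO2 (0.61 ± 0.36, adjusted p = 0.496) were the only 2 of the 15 with both knockdown libraries above both scramble libraries, beside 15.5% of all tested genes. MT-ND4L (0.59), MT-ND4 (0.49), MT-ND5 (0.38), MT-CO3 (0.34), MT-ND6 (0.33), MT-ND1 (0.32), MT-CO1 (0.31), MT-RNR1 (0.30), MT-CYB (0.28), MT-ND3 (0.27), MT-ND2 (0.25) and MT-ATP8 (0.23) lay between. The shared direction did not hold without scramble polysome replicate 1, the library with 7.12% mitochondrial counts. Without it the median of the 15 was −0.27, and without scramble polysome replicate 2 it was 1.16. When genes were not filtered, MT-ATP6 (edgeR adjusted p = 0.00903) and MT-CO2 (adjusted p = 0.0358) were called higher.

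The ratio of polysomal to total RNA, which sets the knockdown effect in one fraction against that in the other, was called for no member. No gene at all was called by edgeR here (0%), and DESeq2 called 0.0246%. Its log2 change was positive for all 15 mRNAs and rRNAs, with a median of 0.33, and MT-ND4L had the largest at 1.29 ± 0.60 (SE, edgeR adjusted p = 0.776). Without scramble polysome replicate 1 the median was −0.16, and without scramble polysome replicate 2 it was 1.19. Among the tested tRNAs MT-TL1 alone had an unadjusted p below 0.05 in edgeR, with a change of 1.48 ± 0.64 (SE, adjusted p = 0.776). When genes were not filtered, MT-ND4L (edgeR adjusted p = 0.000566) and MT-TL1 were called higher.

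**Figure D5:**
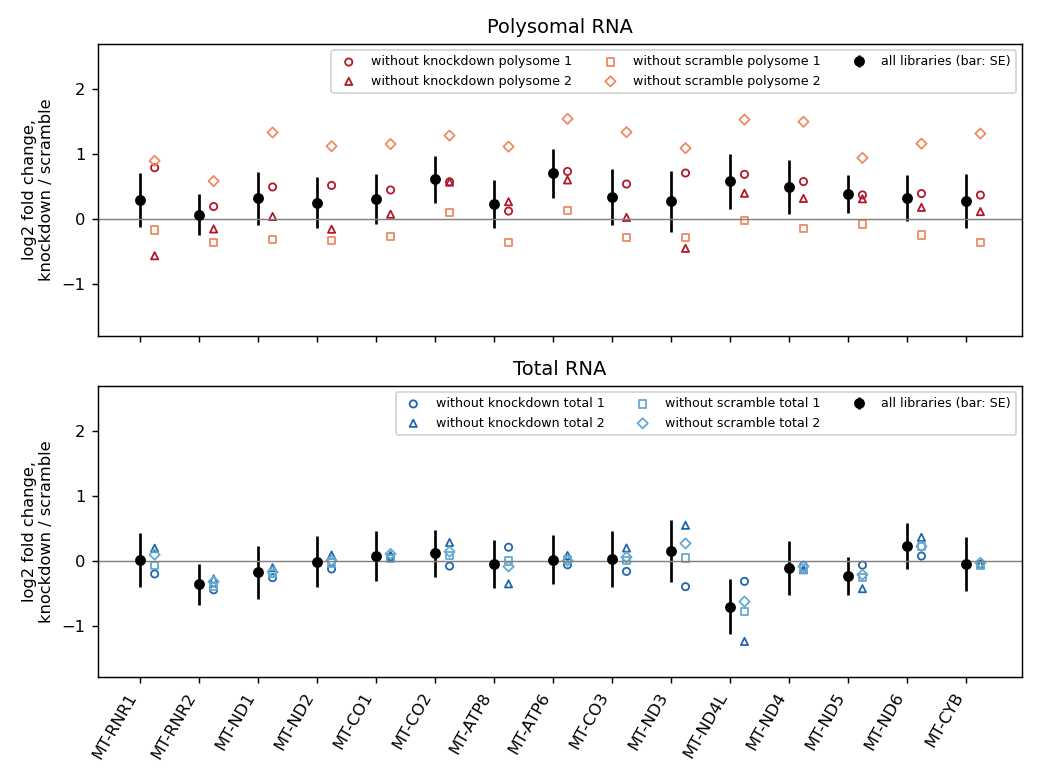
Log2 fold change of knockdown over scramble (y axis) for the 13 mRNAs and 2 rRNAs in polysomal RNA (upper panel) and total RNA (lower panel), with all libraries (black, bars are SE) and after leaving out each library of that fraction (open symbols). In polysomal RNA the values without scramble polysome replicate 2 lie highest and most of those without scramble polysome replicate 1 lie below 0.

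The nuclear genes that make, cut, tail and modify mitochondrial RNA were looked at in lists, and edgeR called no member of any of them in the knockdown comparisons. In total RNA their median log2 fold changes were 0.02 for 15 genes of RNA synthesis and DNA maintenance, 0.07 for 14 of RNA processing, −0.07 for 8 of tailing and decay, 0.17 for 24 of rRNA and tRNA modification and 0.02 for 17 translation factors, beside 0.02 over all tested genes. In polysomal RNA the medians of the lists lay between −0.08 and 0.01, beside −0.01 over all tested genes. DESeq2 called 1 of the 78 tested genes of these lists, HSD17B10, a subunit of mitochondrial RNase P. It did so in total and in polysomal RNA, beside 0.16% and 1.4% of all tested genes called by DESeq2. The level of HSD17B10 was as follows. HSD17B10 stood at 215 and 235 CPM in knockdown polysome libraries, against 120 and 119 CPM in scramble polysome libraries. In total RNA it stood at 89.5 and 63.5 CPM in knockdown libraries, against 26.7 and 32.6 CPM in scramble libraries. The knockdown libraries were above the scramble libraries in both fractions. The log2 fold change was 1.37 ± 0.18 (SE) in total RNA, with an adjusted p of 0.0504 in edgeR and 7.21e-08 in DESeq2, and 0.91 ± 0.18 in polysomal RNA, with 0.161 in edgeR and 0.00302 in DESeq2. Leaving out a library moved the adjusted p of edgeR in total RNA to between 0.0887 and 1.00, and with no filter on low counts it was 3.23e-09. At an unadjusted p below 0.05 edgeR counted 2 of the 78 genes in total RNA, beside 598 of all 16228 tested genes, and 8 of the 78 in polysomal RNA, beside 2152 of 16228.

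The other subunits of RNase P were not called by either tool. TRMT10C, its methyltransferase subunit, had log2 fold changes of −0.11 ± 0.23 (SE) in total and 0.06 ± 0.23 in polysomal RNA, and the nuclease PRORP had 0.06 ± 0.47 and −0.72 ± 0.62. PTCD1, a pentatricopeptide repeat protein of mitochondria, had 18 counts in each knockdown polysome library, against 56 and 50 counts in scramble polysome libraries, and a log2 fold change of −1.13 ± 0.38 there (SE, edgeR adjusted p = 0.264). FASTK, the founder of a family of mitochondrial RNA-binding proteins, had 0.34 in total RNA. Of the synthesis list, MGME1, a nuclease of mitochondrial DNA, had −0.12 in total and −0.36 in polysomal RNA, POLG2, the accessory subunit of the mitochondrial DNA polymerase, had −0.16 in total RNA, and TFB2M, a transcription initiation factor, had 0.47 in polysomal RNA.

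Of the tailing and decay list, the polymerase MTPAP had −0.19 in total and −0.29 in polysomal RNA, the exonuclease REXO2 had 0.42 in total RNA, SLIRP, which binds mitochondrial mRNAs, had 0.17 in polysomal RNA, and the helicase SUPV3L1 had a change of 0.13 in the ratio. Of the modification list, NSUN3, which methylates the tRNA for methionine, had −0.66 ± 0.20 in polysomal RNA (SE, edgeR adjusted p = 0.237), OSGEPL1, which modifies tRNAs that read codons starting with A, had 0.64, QTRT1, which takes part in putting queuosine into tRNAs, had 0.31 in total RNA, and GTPBP3, which modifies wobble uridines, had 0.23 there. Of the translation factors, the elongation factor GFM1 and the recycling factor GFM2 had −0.30 and −0.31 in total RNA, GUF1 had 0.37 in polysomal RNA and the recycling factor MRRF had 0.31 in the ratio. MSS51 had 0 counts in both knockdown polysome libraries, against 3 and 2 counts in scramble polysome libraries (edgeR unadjusted p = 0.0359, adjusted p = 0.343). At this depth the size of the difference is uncertain.

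Nuclear genes whose proteins work beside the mitochondrially encoded ones gave a further point of comparison. Of 76 tested nuclear genes for subunits of oxidative phosphorylation, 69 were higher in polysomal than in total RNA in knockdown cells and 69 in scramble cells, with median log2 fold changes of 2.08 and 2.37, beside 28.9% and 29.7% of all tested genes called higher. Of 75 tested genes for proteins of the mitochondrial ribosome, 68 were higher in knockdown and 70 in scramble cells, with medians of 1.59 and 1.75. The 15 mitochondrial mRNAs and rRNAs had medians of 2.66 and 2.37, as given above. For knockdown over scramble in total RNA 72 of the 76 oxidative phosphorylation genes and 62 of the 75 ribosomal genes had a positive log2 fold change, beside 8575 of all 16228 tested genes, with medians of 0.21 and 0.14, beside −0.01 for the 15 mitochondrial mRNAs and rRNAs. In polysomal RNA the medians were −0.06 and −0.02, beside 0.32. None of these nuclear genes was called by edgeR in a knockdown comparison. DESeq2 called 1 of the 76 oxidative phosphorylation genes lower in polysomal RNA, beside 1.4% of all tested genes called in either direction. In total RNA 3 oxidative phosphorylation and 2 ribosomal genes had an unadjusted p below 0.05 in edgeR, beside 598 of 16228. A difference between the groups of genes was not tested.

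Copies of mitochondrial DNA in the nuclear genome can take reads from the mitochondrial genes. The table held 415 such pseudogene rows, of which 52 had a count, and together they had 0.844 to 1.26% as many counts as the mitochondrial genes. MTATP6P1 had the most, with 7.96 to 10.7% of the counts of MT-ATP6 over the 8 libraries. MTND2P28 had 1.58 to 1.99% of the counts of MT-ND2 in polysome libraries, against 3.94 to 6.32% in total libraries, and MTCO1P12 had 0.0834 to 0.295% of those of MT-CO1. How reads with several matches were counted was not given in the sources used here, so the split of counts between a gene and its nuclear copies is uncertain.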

How the data were processed

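Total and polysomal RNA of IHCF was sequenced in 8 libraries. Per the labels, RNA was DNase treated and poly(A) selected and sequenced in pairs of reads, and the authors deposited 1 table of whole-number counts per gene symbol, which was used as deposited. Named there without roles, per the submitters' processing notes, are the build GRCh38 and the tools HISAT2 2.1.0, featureCounts, Subread 2.0.1, Trimmomatic 0.36, bcl2fastq 2.19.0, R 4.1.2 and DESeq2. Not given in the sources used here are strand setting, annotation, the counting of reads with several matches and the isolation of polysomes. The series' design text speaks of triplicates, and 2 libraries per group were analysed here.

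Genes were filtered with filterByExpr over the 4 groups, scaled by TMM and tested in 1 fit of all 8 libraries with edgeR 4.0.16 (R 4.3.3) quasi-likelihood tests, robust, with Benjamini-Hochberg adjustment over 16228 genes and a threshold of 0.05. SE is the size of the log2 fold change divided by the root of F. The 5 comparisons were polysomal over total RNA with each hairpin, knockdown over scramble in each fraction, and the ratio of these. DESeq2 1.42.0, RLE size factors, library totals, no filter, a replicate block, scaling without the MT- rows, the 4 libraries of a comparison alone and leaving out each library were alternatives. Shares of counts were compared with exact permutation tests (scipy 1.17.1). The mitochondrial mRNAs and rRNAs were all named, of the tRNAs the 3 with the highest mean, of the nuclear mitochondrial lists the 2 members with the smallest p in each knockdown comparison with TRMT10C, HSD17B10 and PRORP, and of nuclear copies the 3 highest. The members and lists were chosen with earlier results of these data known.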

Additional observations from a re-analysis of the deposited data

How the results depend on the processing

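The higher level of mitochondrial mRNAs and rRNAs in polysomal RNA held in direction for 13 of the 15 in every setting tried, with MT-ND5 and MT-ND4L as the exceptions. In scramble cells the log2 fold change of MT-ND5 was −0.028 with DESeq2 and with RLE size factors, −0.98 with library totals, −0.13 with no filter, −0.025 with the replicate block and −0.012 with scaling without the MT- rows, and −0.65 to 0.37 when a library was left out. In knockdown cells it was −0.41 with library totals, where MT-ND4L had −0.66, and MT-ND4L had −0.0026 to 0.92 when a library was left out. In scramble cells library totals gave MT-TN −0.26 and called 11 members higher and 9 lower, and leaving out a library gave 4 to 8 called lower, the most without scramble polysome replicate 2. With library totals 2134 of all 16228 tested genes were called higher and 8852 lower in polysomal RNA of scramble cells. The polysomal minus total difference in the share of all counts in MT- rows was 8.605 to 12.1 points and in the rRNA share 4.87 to 7.26 points when a library was left out, and the exact permutation p was 0.0571 for the first without any 1 of the total libraries and for the second without either knockdown total library or scramble total replicate 1.

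Knockdown over scramble called different numbers of genes by tool and filter. In total RNA the counts were 26 with DESeq2, 38 with no filter and 10 with the 4 libraries alone, against 0, and no filter called 1 member lower. In polysomal RNA they were 228 with DESeq2, 1 with library totals and 502 with no filter, against 2, and no filter called 2 members higher. For the ratio they were 4 with DESeq2 and 64 with no filter, against 0, and no filter called 2 members higher. Leaving out a library gave 0 to 183 calls in polysomal RNA, of which 183 came without knockdown polysome replicate 2 and 5 without either scramble total library, and 0 to 2 for the ratio. Replicate numbers come from the labels and were not used to pair libraries in the main fit. Deviations from the group means correlated at −0.0921 to 0.0264 between same-numbered libraries. With 2 libraries per group this cannot show whether same-numbered libraries came from 1 culture. The replicate block gave 0, 3 and 0 calls in total RNA, in polysomal RNA and for the ratio, called no member in these comparisons and gave MT-ND2 0.0095 in total RNA.

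Many small log2 fold changes of knockdown over scramble, none of them called above, changed sign. In total RNA MT-CO3 had −0.014 with library totals, and MT-ATP6 had −0.00027 with DESeq2 and with RLE size factors, −0.027 with library totals and −0.0057 with no filter. MT-RNR1 had −0.0038 with DESeq2, −0.0037 with RLE size factors, −0.033 with library totals, −0.0087 with no filter and −0.0036 with the 4 libraries alone. In polysomal RNA library totals gave −0.018 for MT-RNR2 and −0.031 for TRMT10C. With a library left out the ranges in total RNA were −0.13 to 0.090 for MT-ND2, −0.40 to 0.55 for MT-ND3, −0.081 to 0.28 for MT-CO2, −0.16 to 0.20 for MT-CO3, −0.061 to 0.082 for MT-ATP6, −0.36 to 0.21 for MT-ATP8, −0.20 to 0.20 for MT-RNR1, −0.45 to 0.039 for MT-TC, −0.92 to 0.011 for MT-TN and −0.037 to 0.14 for PRORP. In polysomal RNA they were −0.31 to 1.33 for MT-ND1, −0.33 to 1.12 for MT-ND2, −0.45 to 1.09 for MT-ND3, −0.14 to 1.5002 for MT-ND4, −0.026 to 1.53 for MT-ND4L, −0.079 to 0.94 for MT-ND5, −0.25 to 1.16 for MT-ND6, −0.36 to 1.32 for MT-CYB, −0.27 to 1.16 for MT-CO1, −0.29 to 1.34 for MT-CO3, −0.36 to 1.12 for MT-ATP8, −0.57 to 0.90 for MT-RNR1, −0.37 to 0.58 for MT-RNR2, −1.09 to 0.19 for MT-TC, −0.50 to 0.36 for MT-TN, −0.21 to 0.68 for MT-TP, −0.28 to 0.40 for TRMT10C and −2.56 to 0.095 for PRORP. For the ratio they were −0.12 to 1.53 for MT-ND1, −0.30 to 1.16 for MT-ND2, −0.58 to 0.96 for MT-ND3, −0.022 to 1.62 for MT-ND4, −0.45 to 0.96 for MT-ND6, −0.29 to 1.39 for MT-CYB, −0.32 to 1.10 for MT-CO1, −0.30 to 1.33 for MT-CO3, −0.30 to 1.18 for MT-ATP8, −0.56 to 0.91 for MT-RNR1, −0.88 to 0.40 for MT-TC, −0.10 to 0.89 for MT-TN, −0.082 to 0.80 for MT-TP, −0.15 to 0.54 for TRMT10C and −2.60 to 0.056 for PRORP. The cause of these changes was not tested. A group left with 1 library is assumed to vary like the others, depth limits the tRNAs with under 100 counts, and with 2 libraries per group the spread of a group rests on 1 difference.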

Other observations

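In the make-up of its mitochondrial RNA, knockdown total replicate 1 stood outside the range of the other 3 total libraries for 12 of the 15 mRNAs and rRNAs, taken as shares of mitochondrial counts. For 9 of these 12, namely MT-ATP6, MT-ATP8, MT-CO2, MT-CO3, MT-CYB, MT-ND4, MT-ND4L, MT-ND5 and MT-RNR1, all polysome libraries lay on the same side. MT-CO2 took 15.1% of mitochondrial counts in this library, against 12.4 to 12.6% in the other total libraries and 18.6 to 24.7% in the polysome libraries. MT-ND4L took 1.09% in this library, against 2.22 to 2.68% in the other total libraries and 0.211 to 0.266% in the polysome libraries. For MT-ND2 and MT-ND6 the polysome libraries lay on the other side, with MT-ND6 at 3.31% in this library, against 2.54 to 2.91% in the other total libraries and 1.28 to 1.40% in the polysome libraries. Knockdown total replicate 2 was also at an end of the total libraries for some members, with MT-CO1 highest at 20.3% and MT-RNR2 lowest at 6.72%. How many members lay outside in this way was not counted for the other total libraries. The members were chosen here after their values were seen, and the cause was not tested.

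Counts of MT-RNR1 were 10.3 and 20.8% of those of MT-RNR2 in knockdown polysome libraries, against 12.3 and 10.5% in knockdown total libraries. In scramble cells they were 13.1 and 14.1% in polysome libraries, against 8.54 and 9.08% in total libraries. The fractions overlapped in knockdown cells and did not in scramble cells. The nuclear copy MTND2P28 had a log2 fold change of polysomal over total RNA of 1.36 in knockdown cells (edgeR adjusted p = 0.0178) and 0.65 in scramble cells (adjusted p = 0.208), beside 2.73 and 2.46 for MT-ND2.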
